A study of Arabidopsis thaliana with 24 samples.

Results

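Genes for arabinogalactan proteins, early nodulin-like proteins and plastocyanin-like proteins were followed through the Arabidopsis root meristem. The members were the gene rows whose deposited title contained the words arabinogalactan, early nodulin or plastocyanin-like and whose row held 1 gene name, which gave 60 of 31229 such rows. By those titles 23 were arabinogalactan proteins (AGP), 14 were fasciclin-like arabinogalactan proteins (FLA), 17 were early nodulin genes (ENODL, with AT5G25940, titled early nodulin-related) and 6 had a plastocyanin-like domain (labelled PCL in the plots). Titles spelled otherwise fell outside this choice, so 11 further genes with an AGP or FLA symbol are given only at the end.

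Arabinogalactan proteins are cell surface and wall proteins whose proline residues are hydroxylated and then carry large galactan chains with arabinose side chains. Many are held at the plasma membrane by a glycosylphosphatidylinositol (GPI) anchor, and they are known in roots from cell expansion and from the cell surface of developing tissues. Fasciclin-like proteins add fasciclin domains, which are adhesion-type folds. Early nodulin-like and plastocyanin-like proteins carry a blue-copper fold, which many early nodulin-like proteins have without the residues that bind copper, often beside a proline-rich stretch of the arabinogalactan type.

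RNA came from protoplasts of Col-0 roots sorted by fluorescence of green fluorescent protein (GFP) into 3 populations labelled Proximal, Medial and Distal. Each zone had 3 libraries in the PUB25 and SPT lines, labelled root meristem, and 2 in the TMO5 line, labelled root meristematic xylem, which makes 24 libraries. The labels name each line by a gene, do not describe its construct or the plants' age, name no treatment, and do not say which GFP intensity each zone had. All groups share protoplasting and sorting. The deposited level is 1 FPKM value per gene, line and zone (fragments scaled to transcript length and to library size), so no error or n can be attached to a level. The files do not give sequencing depth, so it is unknown. "Rose" and "fell" are used below only where the q value (adjusted p) in the authors' deposited table was under 0.05, and differences are on the log2(FPKM + 1) scale, computed from those FPKM. In sorted bulk RNA, fewer cells of a type and less RNA per cell cannot be told apart.

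The populations were read against marker genes. In the TMO5 line the xylem genes TMO5, T5L1, ACL5 and ATHB8 stood between 48.7 and 481 FPKM in all 3 zones, while the vessel genes differed among themselves. VND6, a switch gene for vessel formation, reached 0.344 FPKM there, its relative VND7 17.3 FPKM, and the vessel protease genes XCP1 and XCP2 83.5 and 405 FPKM, each highest in Distal cells. The phloem gene APL was listed at 0 FPKM in all 3 zones there, and 3 markers each of root cap, epidermis and endodermis summed to between 4.43 and 17.6 FPKM per zone. In the meristem lines the root cap markers summed to 265, 314 and 279 FPKM across the PUB25 zones, with 1 of 3 rising and 2 falling in Distal against Proximal cells, and to 118, 90.7 and 310 FPKM across the SPT zones, with 1 rising and 1 falling. BRN2 was the riser in both, at 233 FPKM in Distal against 5.33 FPKM in Proximal cells of the SPT line, where FEZ stood at 1.43 against 45.1 FPKM. Epidermis markers summed to between 36.9 and 76.3 FPKM in these lines. In Distal against Proximal cells 2 of 3 rose and 1 fell in the PUB25 line, and 1 rose and 2 fell in the SPT line. Both phloem markers together reached 0.299 FPKM in the PUB25 line and stood at 0.692, 5.87 and 29.2 FPKM across the SPT zones, where APL rose. Meristem markers (PLT1, PLT2 and RGF2) summed to 269 FPKM in Proximal, 76.1 FPKM in Medial and 21.3 FPKM in Distal cells of the PUB25 line and to 180, 18.4 and 5.72 FPKM in the SPT line. That sum was 131, 156 and 142 FPKM in the TMO5 line, nearly all of it PLT1.

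The groups of members differed in sequence composition and in coding length. How the titles were assigned was not examined, and titles may already reflect composition or length. The values below therefore describe the groups and are not a separate test of them. Codons for proline, alanine, serine or threonine made up a median of 53.6% of the 23 AGP coding sequences, against 24.9% over 27415 coding genes of the reference annotation. The medians were 31.6% for FLA, 31.8% for ENODL and 34.4% for plastocyanin-like genes. AGP4 was the highest of all members with 72.6%, and AGP9 followed with 71.7%. Coding length separated a further set. A group of 8 AGP genes had under 100 codons (59 to 73), among them the genes known as AG peptides, whose mature core is only a few residues long.

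The coding sequences of 4 AG peptide genes are shown because they were among the 5 largest rises of the PUB25 line. They are written 5′ to 3′ on the coding strand from the start codon to the stop codon, with proline codons in capitals, and were read from the RefSeq TAIR10.1 genome, whose nuclear chromosomes have the TAIR10 sequence. AGP12 lies at chr3:4409087-4409269 on the plus strand, AGP13 at chr4:13317235-13317414 on the minus strand and AGP14 at chr5:22893243-22893425 on the plus strand, each as 1 coding exon. AGP22 spans chr5:21603715-21604007 on the plus strand and is shown spliced from 2 coding exons.
AGP12: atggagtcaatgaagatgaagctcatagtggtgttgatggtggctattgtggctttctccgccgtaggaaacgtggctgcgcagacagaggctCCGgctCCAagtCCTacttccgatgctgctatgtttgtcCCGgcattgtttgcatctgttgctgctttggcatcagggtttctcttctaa
AGP13: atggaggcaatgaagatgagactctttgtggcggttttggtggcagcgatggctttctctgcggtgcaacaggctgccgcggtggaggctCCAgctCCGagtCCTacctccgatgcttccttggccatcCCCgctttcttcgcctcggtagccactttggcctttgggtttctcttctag
AGP14: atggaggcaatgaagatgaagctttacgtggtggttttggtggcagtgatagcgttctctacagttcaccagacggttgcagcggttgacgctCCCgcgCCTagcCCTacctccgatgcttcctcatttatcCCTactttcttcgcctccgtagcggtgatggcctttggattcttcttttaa
AGP22: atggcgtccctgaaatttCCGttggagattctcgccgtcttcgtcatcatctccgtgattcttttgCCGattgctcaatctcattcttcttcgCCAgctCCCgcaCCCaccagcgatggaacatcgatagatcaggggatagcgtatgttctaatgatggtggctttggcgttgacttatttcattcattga
AGP12, AGP13 and AGP14 had 4 proline codons each and AGP22 had 5, and in each gene 3 of them alternate with an alanine or serine codon in 1 short run. AGP13 and AGP14 shared 77.0% of aligned bases, AGP12 and AGP13 72.7%, and AGP22 shared 49.0% to 50% with the other 3.

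For contrast, the 150 coding bases richest in proline codons are shown for AGP5, a classical AGP, and for ENODL13, ENODL14 and ENODL15, which had the largest falls of the SPT line. They lie at chr1:12917271-12917420 (AGP5, plus strand), chr5:8647201-8647350 (ENODL13, minus strand), chr2:10662706-10662855 (ENODL14, plus strand) and chr4:15402196-15402345 (ENODL15, plus strand).
AGP5: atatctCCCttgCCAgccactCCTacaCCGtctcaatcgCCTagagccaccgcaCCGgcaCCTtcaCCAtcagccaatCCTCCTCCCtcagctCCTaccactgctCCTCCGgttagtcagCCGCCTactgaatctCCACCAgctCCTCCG
ENODL13: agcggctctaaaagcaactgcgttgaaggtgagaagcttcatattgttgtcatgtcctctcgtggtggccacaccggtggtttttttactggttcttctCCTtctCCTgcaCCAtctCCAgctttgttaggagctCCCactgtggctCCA
ENODL14: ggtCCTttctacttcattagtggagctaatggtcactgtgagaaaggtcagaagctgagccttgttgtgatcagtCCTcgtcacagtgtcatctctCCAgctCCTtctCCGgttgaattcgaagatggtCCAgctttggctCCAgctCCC
ENODL15: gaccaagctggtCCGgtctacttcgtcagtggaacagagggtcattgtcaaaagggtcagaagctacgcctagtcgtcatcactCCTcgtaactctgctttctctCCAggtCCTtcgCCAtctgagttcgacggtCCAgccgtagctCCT
AGP5 had 20 proline codons among the 50 shown, while ENODL13 had 6, ENODL14 had 8 and ENODL15 had 7. ENODL14 and ENODL15 shared 72.1% of aligned coding bases, ENODL13 and ENODL14 61.7%, and ENODL13 and ENODL15 62.3%.

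**Figure D1:**
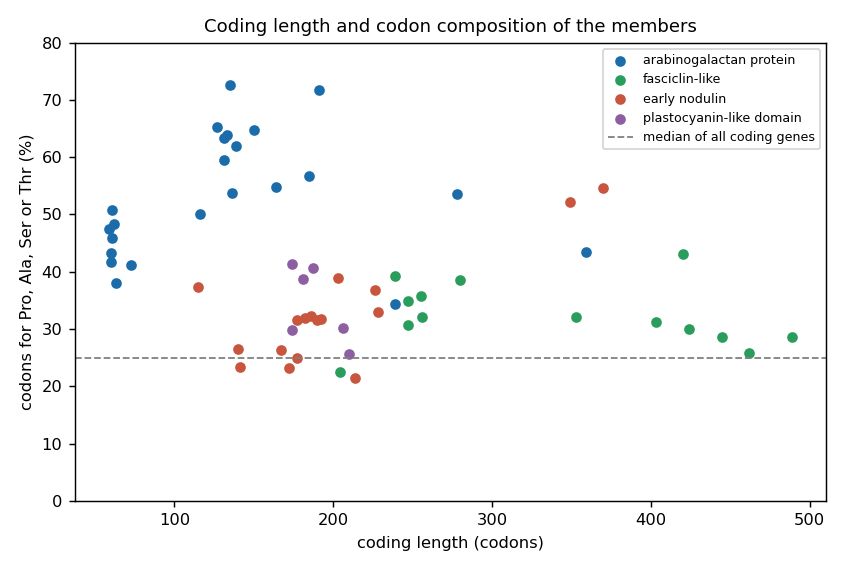
Coding length in codons (x axis) against the percent of codons for proline, alanine, serine or threonine (y axis), 1 point per member, with the median of all coding genes (24.9%) as a dashed line. All 23 AGP genes lie above the line, from 34.3% to 72.6%, and the 8 under 100 codons form a cluster at the left.

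Summed over the members, RNA was most abundant outside Proximal cells in both meristem lines. The 60 genes summed to 7090 FPKM in Proximal, 14076 FPKM in Medial and 11935 FPKM in Distal cells of the PUB25 line, to 5297, 11549 and 15496 FPKM in the SPT line and to 3428, 2709 and 3959 FPKM in the TMO5 line. The 23 AGP genes made up most of each sum, with 14410 FPKM in Distal and 4612 FPKM in Proximal cells of the SPT line. Between 49.2% and 80.5% of each sum came from 4 genes. A further 14 members stayed under 1 FPKM in all 9 zones, namely 6 ENODL, 5 FLA, 2 plastocyanin-like genes and AGP6, which is known from pollen. Among them 3 were listed at 0 FPKM throughout (ENODL22, ENODL11 and AT1G30800), and FLA3, also known from pollen, reached 0.335 FPKM.

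AGP31, AGP1, AGP30, AGP2, AGP9 and AGP15 had the highest levels in the PUB25 line. AGP13 and AGP12 stood in place of AGP30 and AGP9 among the first 6 of the SPT line, and ENODL17 and ENODL14 were among the first 6 of the TMO5 line. AGP31 (AT1G28290, chromosome 1, 9889040 to 9890993), a non-classical AGP found in vascular tissue, stood at 1906 FPKM in Proximal, 5589 FPKM in Medial and 4441 FPKM in Distal cells of the PUB25 line and at 541, 1162 and 4103 FPKM in the SPT line. In Medial cells of the PUB25 line it ranked 5 among 25102 coding genes with a row of their own, and AGP1 ranked 4 in Medial cells of the SPT line. Its Distal level was above Proximal by 1.22 and 2.92 on the log2 scale in these lines, and both were rises (q = 0.00232 and 0.00309 in the authors' deposited table). AGP31 stood at 484, 478 and 392 FPKM in the TMO5 line, where no zone pair passed.

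AGP1 (AT5G64310), a classical AGP, was also abundant but did not follow the zones in the same way. It stood at 2028 FPKM in Proximal, 2451 FPKM in Medial and 1788 FPKM in Distal cells of the PUB25 line, where no zone pair passed the authors' test. In the SPT line it stood at 1623, 3122 and 3084 FPKM, and of the differences only that of Medial against Proximal passed (q = 0.0492 in the authors' deposited table). AGP1 was at 550.5, 405 and 636 FPKM in the TMO5 line, with no pair passing. AGP9, another classical AGP, rose in the PUB25 line, to 541 FPKM in Distal against 265 FPKM in Proximal cells (q = 0.000407 in the authors' deposited table). The SPT difference of AGP9 did not pass (q = 0.161). AGP9 was high in the xylem line too, at 435 FPKM in Proximal, 429 FPKM in Medial and 529 FPKM in Distal cells of the TMO5 line.

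AGP30 (AT2G33790, chromosome 2, 14293561 to 14295271), a root AGP with a domain like that of AGP31, had the largest AGP rise of the SPT line. It stood at 17.7 FPKM in Proximal, 173 FPKM in Medial and 698 FPKM in Distal cells there, a Distal minus Proximal difference of 5.23 (q = 0.000359 in the authors' deposited table). In the PUB25 line it was already at 425 FPKM in Proximal cells and rose to 1991 FPKM in Medial and 1540 FPKM in Distal cells. AGP30 stayed far lower in the TMO5 line, between 8.35 and 12.4 FPKM. AGP2 stood at 366, 1125 and 1526 FPKM across the SPT zones and rose in Distal cells, while in the PUB25 line it was highest in Medial cells, at 801, 1293 and 952 FPKM. AGP2 was at 82.7, 40.9 and 186 FPKM in the TMO5 line, and its Distal level was a rise against Proximal (q = 0.0332) and against Medial cells (q = 0.00777) in the authors' deposited table.

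**Figure D2:**
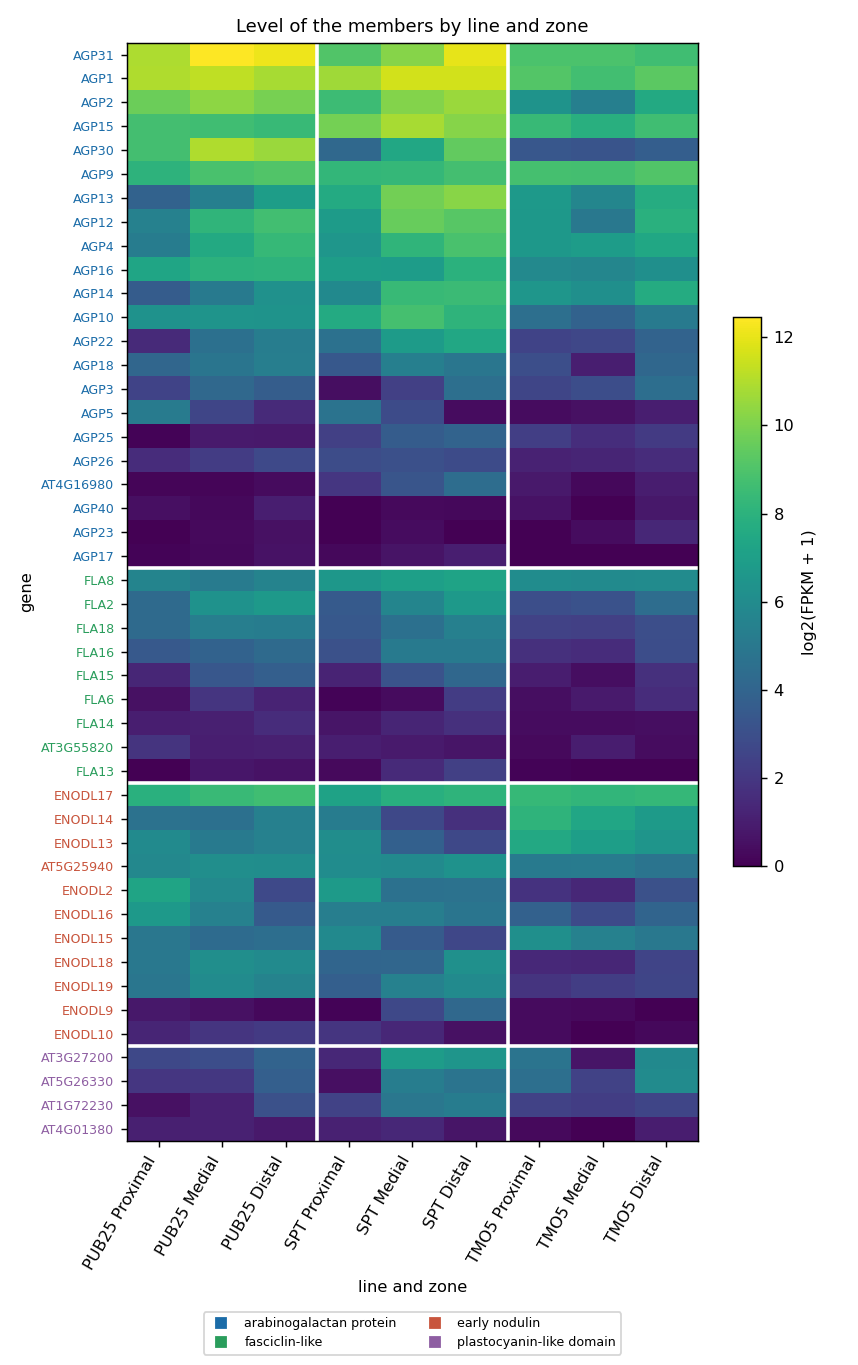
Level of the 46 members that reached 1 FPKM in at least 1 zone, as log2(FPKM + 1) by colour, with genes as rows and the 3 zones of each line as columns. AGP31 and AGP1 are the brightest rows, and AGP30 is bright in the PUB25 line, graded in the SPT line and dark in the TMO5 line.

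Distal against Proximal cells asked how the members differ between the ends of the zone series. In the PUB25 line 23 of 60 members rose and 5 fell by the authors' deposited table, where 10.4% of all rows with 1 gene rose and 8.98% fell. The SPT line also had 23 risen members and 4 fallen, against 13.3% and 12.3% of all rows. In the TMO5 line 4 rose and 2 fell, against 0.599% and 0.125% of all rows. At a stricter q value of 0.01 the TMO5 line had 0 rises and 1 fall, and the PUB25 falls were 3. The smallest q value deposited for any TMO5 row was 0.00777, against 0.000407 for PUB25 and 0.000359 for SPT rows. The stricter cut therefore lies close to the TMO5 minimum and is not equally strict across lines. Many of the rows tested are silent genes. Among rows with a mean of at least 1 FPKM, 23 of 39 members and 19.9% of all rows rose in the PUB25 line, 23 of 42 members and 24.8% rose in the SPT line, and 4 of 35 members and 1.3% rose in the TMO5 line. Falls at that level were 5 of 39 members against 17.4% of rows in the PUB25 line, 4 of 42 against 23.1% in the SPT line and 2 of 35 against 0.266% in the TMO5 line. Over these members the median difference was 0.79 in the PUB25 line, 2.01 in the SPT line and 0.59 in the TMO5 line, where the medians of all rows were -0.01, 0.07 and 0.00. With every member kept, whatever its level, the medians were 0.50, 0.59 and 0.20.

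The rises were mostly AGP genes and the falls mostly ENODL genes. Over all rows the shares of rises in the PUB25, SPT and TMO5 lines were 10.4%, 13.3% and 0.599%. The shares of falls were 8.98%, 12.3% and 0.125%. Of the 23 AGP genes 12 rose and 1 fell in the PUB25 line, 13 rose and 0 fell in the SPT line, and 3 rose and 0 fell in the TMO5 line. The SPT line nevertheless held AGP5, with 0.342 FPKM in Distal and 26.1 FPKM in Proximal cells, which did not pass (q = 0.381 in the authors' deposited table). Of the 17 ENODL genes 4 rose and 3 fell in the PUB25 line, 3 rose and 4 fell in the SPT line, and 0 rose and 2 fell in the TMO5 line. The ENODL rises were 23.5% in the PUB25 line and 17.6% in the SPT line, the latter near the share over all rows. The ENODL falls were 17.6% and 23.5% in these 2 lines. FLA genes rose in 4, 5 and 1 of 14 members in the PUB25, SPT and TMO5 lines. Only AT3G55820 fell, to 1.12 FPKM in Distal against 2.67 FPKM in Proximal cells of the PUB25 line. Counts of 0 here rest on the deposited q values alone. The meristem lines shared 19 risen members, 82.6% of the rises in each line, and 2 fallen members, ENODL2 and ENODL15, which are 40% of the PUB25 falls and 50% of the SPT falls. The matching shares over all rows were not computed, so these shares cannot be read as particular to the members. The part of the root cap, phloem and other marker values given above in the AGP rises was not tested.

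**Figure D3:**
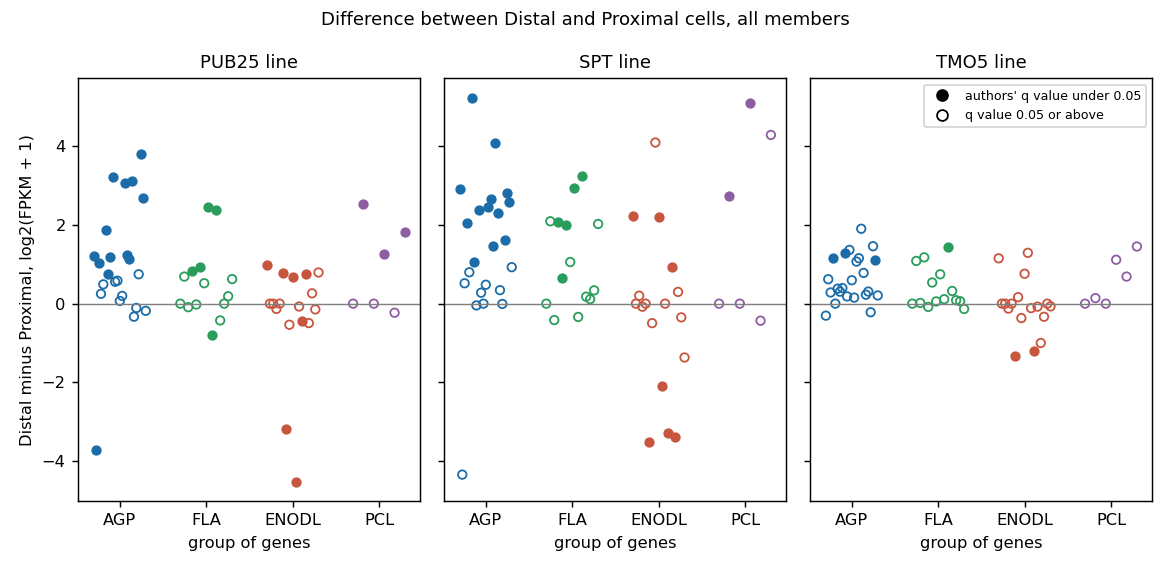
Distal minus Proximal difference in log2(FPKM + 1) for all 60 members (y axis) by group of genes (x axis), 1 panel per line, with filled points where the authors' q value was under 0.05. Filled AGP points lie above 0 except AGP5 in the PUB25 line, and the filled ENODL points split into rises and falls.

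The AG peptide genes whose sequences are given above rose in both meristem lines. AGP12 (chromosome 3, 4408925 to 4409440) stood at 42.8 FPKM in Proximal, 279 FPKM in Medial and 403 FPKM in Distal cells of the PUB25 line, at 114, 744 and 594 FPKM in the SPT line and at 97.0, 30.9 and 237 FPKM in the TMO5 line. Distal was above Proximal in all 3 lines, by 3.21, 2.38 and 1.28, and each was a rise (q = 0.000407, 0.000359 and 0.0332 in the authors' deposited table). In the TMO5 line AGP12 was lowest in Medial cells, and it was the 1 member that fell there against Proximal cells (q = 0.0392 in the authors' deposited table). AGP2, AGP13 and AGP14 were lowest in Medial and highest in Distal cells of that line too. So were the vessel genes XCP2, at 167, 7.54 and 405 FPKM, and XCP1, at 35.8, 8.77 and 83.5 FPKM, whose part in the AGP values was not tested.

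AGP13 stood at 14.0, 40.0 and 123 FPKM across the PUB25 zones, at 191, 881 and 1204 FPKM across the SPT zones and at 100.3, 50.9 and 211 FPKM across the TMO5 zones. Its Distal minus Proximal difference was 3.05 in the PUB25 line and 2.65 in the SPT line, both rises, and the TMO5 difference did not pass (q = 0.168 in the authors' deposited table). AGP14 stood at 11.2, 32.8 and 77.7 FPKM in the PUB25 line, at 58.3, 336 and 355 FPKM in the SPT line and at 91.9, 72.0 and 200.2 FPKM in the TMO5 line. AGP14 rose in Distal against Proximal cells in all 3 lines, and the TMO5 rise was the narrowest (q = 0.0444 in the authors' deposited table). AGP22 was the scarcest of the set, at 1.83, 23.0 and 38.3 FPKM in the PUB25 line, where its difference of 3.80 was the largest rise of any member. AGP22 also rose in the SPT line, at 23.7, 111 and 173 FPKM, and stood at 4.62, 5.21 and 14.4 FPKM in the TMO5 line.

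Of the 8 AGP genes under 100 codons, 5 rose and 0 fell in Distal against Proximal cells in each meristem line, and 2 rose in the TMO5 line. Over all rows the shares of rises were 10.4% in the PUB25 line, 13.3% in the SPT line and 0.599% in the TMO5 line. AGP23 and AGP40, also of this length, were near the floor, reaching at most 0.497 and 1.09 FPKM in the meristem lines. Grouping by length was chosen after these values were seen. The fifth in both meristem lines was AGP16, which overlaps a gene on the opposite strand. AGP15 has under 100 codons too but was not among the rises: it stood at 427 FPKM in Proximal, 395 FPKM in Medial and 340 FPKM in Distal cells of the PUB25 line and at 921, 1777 and 1168 FPKM in the SPT line. Among the 15 longer AGP genes 7 rose and 1 fell in the PUB25 line, 8 rose in the SPT line, and AGP2 alone rose in the TMO5 line. Genes outside the title rule were not grouped by length. Among them is AGP20, whose coding sequence was the nearest to that of AGP16, at 84.4% identity. AGP20 fell in the PUB25 line, to 168 FPKM in Distal against 355 FPKM in Proximal cells (q = 0.000407 in the authors' deposited table). Its SPT difference did not pass (q = 0.454).

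**Figure D4:**
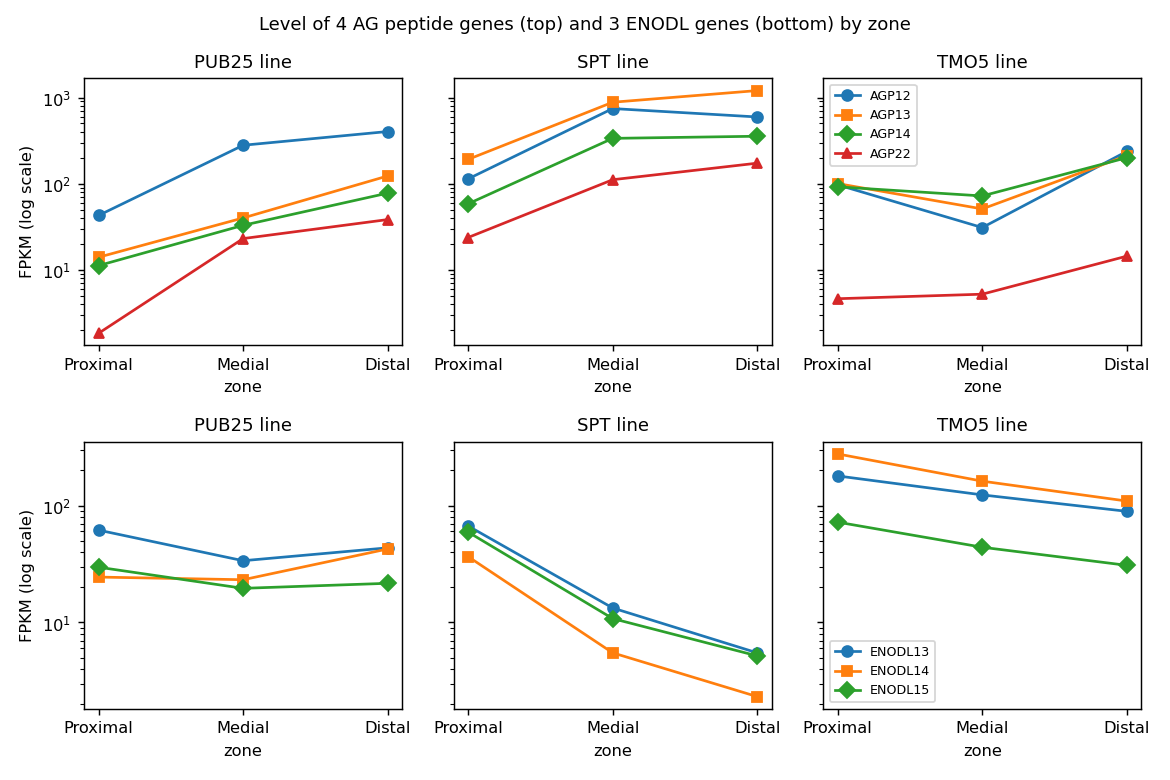
FPKM on a log scale (y axis) in Proximal, Medial and Distal cells (x axis) for AGP12, AGP13, AGP14 and AGP22 (top row) and ENODL13, ENODL14 and ENODL15 (bottom row), with 1 panel per line and 1 deposited value per point. The 4 AG peptide genes end higher in Distal than in Proximal cells in every panel, while ENODL14 ends higher in the PUB25 line (42.5 against 24.5 FPKM) and lower in the other lines.

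Among the longer AGP genes AGP4, a classical AGP, rose in both meristem lines. It stood at 36.2, 189 and 320.5 FPKM across the PUB25 zones and at 92.9, 279 and 461 FPKM across the SPT zones. AGP3 stood at 0.393, 4.21 and 22.6 FPKM in the SPT line, a rise of 4.08, and at 4.76, 17.7 and 11.6 FPKM in the PUB25 line, where Medial cells were above both other zones. AGP18, a lysine-rich AGP, rose in both meristem lines at lower levels, to 39.5 FPKM in Distal against 16.2 FPKM in Proximal cells of the PUB25 line.

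AGP5 ran the other way. It stood at 35.6 FPKM in Proximal, 5.13 FPKM in Medial and 1.79 FPKM in Distal cells of the PUB25 line, a difference of -3.71 (q = 0.000407 in the authors' deposited table), and at 26.1, 6.24 and 0.342 FPKM in the SPT line. There it fell in Medial against Proximal cells (q = 0.000359), while the larger Distal difference did not pass. AGP10 stood at 194, 437 and 271 FPKM in the SPT line. Medial was the highest zone for 10 members there, and AGP10 was the 1 member whose Medial level passed the authors' test against both other zones. AGP10 and AGP4 overlap genes on the opposite strand.

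FLA genes were less abundant than AGP genes, summing to 361 FPKM in Distal and 126 FPKM in Proximal cells of the SPT line. FLA2 (chromosome 4, 7491383 to 7492876) stood at 18.8 FPKM in Proximal, 81.2 FPKM in Medial and 102 FPKM in Distal cells of the PUB25 line, at 10.4, 49.6 and 107 FPKM in the SPT line and at 7.03, 7.86 and 20.7 FPKM in the TMO5 line. It rose in Distal against Proximal cells in all 3 lines, by 2.39, 3.24 and 1.44 (q = 0.000407, 0.000359 and 0.0332 in the authors' deposited table). FLA15, FLA16 and FLA18 also rose in both meristem lines, FLA15 to 16.6 FPKM in Distal against 1.32 FPKM in Proximal cells of the SPT line. FLA16 overlaps a gene on the opposite strand. FLA8 stood at 47.2, 35.0 and 46.5 FPKM in the PUB25 line, where Medial cells were below both other zones, and at 93.8, 130 and 149 FPKM in the SPT line, where Distal rose against Proximal (q = 0.0418 in the authors' deposited table).

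ENODL genes held most of the falls. ENODL2 (chromosome 4, 13750440 to 13751905), whose coding sequence has 52.1% codons for proline, alanine, serine or threonine, stood at 152 FPKM in Proximal, 57.8 FPKM in Medial and 5.69 FPKM in Distal cells of the PUB25 line. It stood at 109, 24 and 24.6 FPKM in the SPT line, and the differences of -4.51 and -2.10 were both falls in the authors' deposited table. ENODL2 was scarce in the TMO5 line, at 2.49, 1.65 and 7.52 FPKM. ENODL16 fell in the PUB25 line, at 104, 43.4 and 10.6 FPKM, and the SPT difference did not pass, at 39.0, 39.6 and 27.4 FPKM (q = 0.138 in the authors' deposited table).

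ENODL13, ENODL14 and ENODL15, whose sequences are given above, fell together in the SPT line. ENODL14 (chromosome 2, 10662241 to 10663103) stood at 36.6 FPKM in Proximal, 5.5 FPKM in Medial and 2.32 FPKM in Distal cells there, ENODL15 at 59.3, 10.8 and 5.18 FPKM and ENODL13 at 66.9, 13.3 and 5.5 FPKM. Their differences were -3.50, -3.29 and -3.39. In the TMO5 line ENODL14 was at 276, 162 and 109 FPKM and ENODL15 at 72.1, 44.0 and 30.8 FPKM, both falls (q = 0.00777 and 0.0363 in the authors' deposited table). ENODL13 stood at 179, 123 and 89.2 FPKM there and did not pass (q = 0.213). In the PUB25 line ENODL14 instead rose, at 24.5, 23.2 and 42.5 FPKM, while ENODL15 fell by 0.44, at 29.7, 19.6 and 21.6 FPKM. ENODL13 was at 61.6, 33.7 and 43.5 FPKM in that line with no Distal call. The deposited locus of ENODL13 overlaps a gene on the opposite strand, and whether counting used strand is not given in the sources used here, so their reads cannot be told apart.

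Other ENODL genes rose. ENODL17, the most abundant, stood at 236, 350 and 401 FPKM in the PUB25 line, at 143, 230 and 272 FPKM in the SPT line and at 325, 296 and 309 FPKM in the TMO5 line. It rose in Distal against Proximal cells of both meristem lines. ENODL18 and ENODL19 rose there as well, ENODL18 to 75.8 FPKM in Distal against 15.5 FPKM in Proximal cells of the SPT line. Meristem markers fell in both of those lines beside the ENODL falls, all 3 of 3 in each, and none of 3 changed in the TMO5 line. Their part in the ENODL falls was not tested.

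Plastocyanin-like genes were scarce in Proximal cells of the meristem lines. AT3G27200 stood at 1.60 FPKM in Proximal, 118 FPKM in Medial and 87.7 FPKM in Distal cells of the SPT line, a Distal rise of 5.09 and the second largest among the called members there. It stood at 5.52, 6.73 and 14.5 FPKM in the PUB25 line, also a rise, and at 26.7, 0.642 and 58.9 FPKM in the TMO5 line, where no Distal against Proximal call was made (q = 0.228 in the authors' deposited table). AT5G26330, which the files place at more than 1 locus, followed the same order, with 0.439, 37.2 and 27.0 FPKM in the SPT line and 22.4, 4.50 and 62.9 FPKM in the TMO5 line. It passed the authors' test in the PUB25 line, at 2.90, 3.06 and 12.7 FPKM, and in Distal against Medial cells of the TMO5 line (q = 0.0133). AT1G72230 rose in both meristem lines, to 36.0 FPKM in Distal against 4.57 FPKM in Proximal cells of the SPT line.

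AT3G27200 and AT5G26330 had the same order of zones as the xylem vessel protease genes in the SPT and TMO5 lines. Other members did too, among them AGP1, AGP10, AGP12, AGP15 and AGP18. AT1G72230 shared the order in the TMO5 line, at 4.54, 3.87 and 5.11 FPKM, but not in the SPT line, at 4.57, 29.6 and 36.0 FPKM. In the PUB25 line XCP2 was lowest in Medial cells, at 32.9, 28.2 and 114 FPKM. AT3G27200 and AT5G26330 were lowest in Proximal cells there. The protease gene XCP2 stood at 2.78, 648 and 368 FPKM across the SPT zones and at 167, 7.54 and 405 FPKM across the TMO5 zones. The 8 xylem markers summed to 29.2 FPKM in Proximal, 789 FPKM in Medial and 437 FPKM in Distal cells of the SPT line, where 2 rose and 2 fell in Distal against Proximal cells. They summed to 47.0, 47.0 and 172 FPKM in the PUB25 line, where 7 of 8 rose, and to 926, 671 and 990 FPKM in the TMO5 line, where 1 rose and 1 fell. VND6 was listed at 0 FPKM in Medial cells of the TMO5 line. The part of these markers in the plastocyanin-like values was not tested.

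Both steps of the zone series held calls in the meristem lines. In Medial against Proximal cells 20 members rose and 7 fell in the PUB25 line, where 7.6% and 6.15% of all rows did, and 23 rose and 5 fell in the SPT line, against 9.31% and 9.3%. In Distal against Medial cells 11 rose and 6 fell in the PUB25 line, against 5.89% and 5.84%, and 11 rose and 2 fell in the SPT line, against 6.42% and 5.57%. The difference between the steps was not tested. In the TMO5 line 0 rose and 1 fell in Medial against Proximal cells, against 0.0128% and 0.0833% of all rows, and 5 rose and 0 fell in Distal against Medial cells, against 1.02% and 0%. Those 5 were AGP2, AGP12, AGP13, AGP14 and AT5G26330. Among members reaching 1 FPKM in a line, Distal was the highest zone for 20 of 40 in the PUB25 line, 27 of 44 in the SPT line and 30 of 39 in the TMO5 line. Over all rows that share was 35.8%, 38.4% and 41.1%.

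Enzymes that modify these proteins were read from lists of names. The prolyl 4-hydroxylases P4H2 and P4H5, which hydroxylate prolines of wall proteins, rose in both meristem lines, and P4H5 stood at 44.1 FPKM in Distal against 8.69 FPKM in Proximal cells of the SPT line. P4H13, the third, did not pass. Of 17 listed genes for AGP glycan synthesis 8 could be used, and of these 2 rose in the PUB25 line and 1 in the SPT line, where 10.4% and 13.3% of all rows rose. The other 9 were left out, 8 because the tables used here do not pair the name with the listed locus. Among those 8 loci 2 rose and 3 fell in the PUB25 line and 2 rose and 0 fell in the SPT line. The 1 SPT rise among the 8 usable genes was FUT6, a fucosyltransferase, at 102 FPKM in Distal against 4.87 FPKM in Proximal cells. Of 4 listed GPI anchor genes 2 could be used, SETH1 and SETH2, and neither passed in any line. None of the genes used from these lists passed in the TMO5 line, where 0.599% of all rows rose and 0.125% fell. An absence of calls among so few genes is near those shares.

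Relatives by fold and by symbol were read beside the members. Among 6 usable of 7 listed other phytocyanins and xylogens 3 rose and 2 fell in the PUB25 line, 4 rose and 1 fell in the SPT line and 0 did either in the TMO5 line. Of all rows 10.4% rose and 8.98% fell in the PUB25 line and 13.3% rose and 12.3% fell in the SPT line. In the TMO5 line 0.599% of all rows rose and 0.125% fell, so an absence of calls among few genes is near those shares. UCC1, a uclacyanin, stood at 480 FPKM in Distal against 8.91 FPKM in Proximal cells of the SPT line, while XYP1, a xylogen protein, fell to 7.09 FPKM in Distal against 101 FPKM in Proximal cells there. XYP2, the other xylogen listed, rose in both meristem lines, to 242 FPKM in Distal against 62.8 FPKM in Proximal cells of the SPT line. Endodermis markers summed to 21.6, 117 and 189 FPKM across the SPT zones, with 2 of 3 rising and 1 falling, and their part in the UCC1 value was not tested. Of the 11 AGP and FLA genes outside the title rule 6 rose and 2 fell in the PUB25 line, 5 rose and 2 fell in the SPT line and 0 did either in the TMO5 line. AGP24 stood at 683 FPKM in Distal against 80.9 FPKM in Proximal cells of the SPT line, and FLA10 fell in both meristem lines. AGP20 fell in the PUB25 line only.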

How the data were processed

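RNA-seq was done on 24 libraries of sorted protoplasts. Per the submitters' processing notes Bowtie, TopHat, Cufflinks and Cuffdiff were used with TAIR10, with no versions or roles given. The authors deposited FPKM as 1 value per gene, line and zone, so replicates were not available as values and no test of differences could be run on them here. The planned per-library test was replaced by the q values (adjusted p-values) and log2 folds that the authors deposited for each pair of zones, per the file headers. From the FPKM, log2(FPKM + 1) differences and medians were computed over rows with a mean of at least 1 FPKM, beside the same over all rows of 1 gene. A call is a deposited q value under 0.05. Named genes were, per line, the 6 highest levels, up to 5 largest called rises and falls, members with Medial highest, and opposite calls between lines; others named were chosen after their values were seen. The members and lists were chosen with earlier results of these data known. Nothing says that libraries came from separate plants, so q values may measure technical spread. Of the 60 members, 13 overlap a gene on the opposite strand. Coding sequences came from RefSeq TAIR10.1. Python 3.11.15, numpy 2.4.6, pandas 2.3.3 and matplotlib 3.10.9 were used. The 2-fold rule, the quantile normalization and the reading of q values were run on simulated data. The simulated q values were set in advance, and the other steps were not tested in this way. Alternatives were a stricter q, a 2-fold rule, other pseudocounts, filters and scalings.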

Additional observations from a re-analysis of the deposited data

Results flagged for a closer look

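ENODL14 went in opposite directions in different lines. Its Distal minus Proximal difference on the log2(FPKM + 1) scale was 0.77 in the PUB25 line, -3.50 in the SPT line and -1.33 in the TMO5 line, and each passed the authors' test in the deposited table. The difference between the lines was not tested, because each line has 1 deposited value per zone.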

How the results depend on the processing

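Of 108 counts of calls recomputed under other settings 95 stayed within 1.5 times the value reported and 13 moved. Of the 13, 6 moved with q under 0.01 and 7 with the 2-fold rule. The filter at 1 FPKM changed no count, and leaving out the 1 member at several loci could change a count by at most 1. A count of 0 that stayed 0 was scored as unchanged, so the 95 do not measure robustness by themselves. Of 45 medians 33 stayed, 11 moved and 1 reversed. With q under 0.01, PUB25 falls were 3 in Distal against Proximal and 2 in Distal against Medial cells, SPT falls in Distal against Medial cells were 0, and in the TMO5 line Distal against Proximal had 0 rises and 1 fall and Medial against Proximal had 0 falls. With a 2-fold difference in place of the q value, the PUB25 line had 3 falls in Distal against Proximal, 3 falls in Medial against Proximal, and 5 rises and 3 falls in Distal against Medial cells. The TMO5 line then had 15 rises in Distal against Proximal, 5 falls in Medial against Proximal and 17 rises in Distal against Medial cells. With no filter on low values the medians for Distal against Proximal, Medial against Proximal and Distal against Medial were 0.50, 0.20 and 0.0077 in the PUB25 line, 0.59, 0.41 and 0.0158 in the SPT line and 0.20, -0.12 and 0.37 in the TMO5 line. With a minimum mean of 5 FPKM the TMO5 median of Medial against Proximal cells was -0.39. Quantile normalization gave 0.11 for Distal against Medial cells of the PUB25 line and reversed that of the SPT line to -0.052. The cause of these changes was not tested. Median centring removed shifts of 0.10 and 0.12 from the TMO5 Distal against Proximal and Distal against Medial differences. Adding relatives by symbol, an alternative chosen after seeing the data, moved no count by over 1.5 times. No paired analysis was possible because the files give 1 value per zone and their columns carry no replicate number; leaving out a replicate was not run for the same reason. Depth is unknown.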
